A study of Mus musculus with 8 samples.

Results

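Genes that control the early steps of blood formation were followed in spleen cells of mice transgenic for HMGA1a, a protein that bends DNA and shapes chromatin. The set was a list of 10 gene symbols: the surface proteins Kit, Cd34 and Ly6a and the transcriptional regulators Gata2, Tal1, Lmo2, Erg, Meis1, Myb and Spi1. A gene was measured by the probe sets annotated to its symbol alone. Of these, the brightest by its mean log2(signal + 16) over 8 arrays was used. Such a probe set was found for 9 of the 10 genes, out of 18194 genes named in this way on the whole array. Ly6a was not analysed here.

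Spleen cell RNA of 8 male C57/BL6 mice was measured on Affymetrix Mouse 430 2.0 arrays, with a separate array for each animal. HMGA1a transgenic mice (TG) at 12 months, by the series' design text the age of established lymphoid tumours, were set against wild-type control littermates (WT) at 12 months. TG mice at 2 months, the age ahead of tumours, were set against WT littermates at 2 months. Each of the 4 groups held 2 mice, numbered as biologic replicate 1 and 2. The promoter that drives the transgene was not given in the sources used here, and the level of HMGA1a itself was not analysed here. Signals are linear. They depend on how well each probe set hybridises, and are therefore compared between mice and not between genes. With so few arrays the precision of each value is limited.

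In the bone marrow, and in the mouse spleen as a secondary site of blood formation, stem and progenitor cells are kept by a network of transcription factors that bind together at shared regulatory elements. TAL1, an E-box-binding basic helix-loop-helix factor, and LMO2, an adaptor without DNA contacts of its own, form a complex with GATA factors, and ERG, an ETS factor, occupies many of the same elements. MEIS1 is a partner of HOX proteins, MYB sustains immature and dividing blood cells, and SPI1 (PU.1) drives the myeloid and B cell programmes. KIT, the receptor for stem cell factor, and CD34, a sialomucin, are surface marks of progenitors. None of these genes is restricted to progenitors, and the uses named here are not all of them. Kit and Gata2 are also used by mast cells, and Cd34, Tal1 and Erg by endothelium. Tal1 and Lmo2 are used by the red cell and platelet lineages, and Spi1 by macrophages and B cells. RNA of mixed spleen cells was measured, so fewer cells of a type and less RNA per cell cannot be told apart.

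The labelled cell type was checked first. The B cell gene Ms4a1 (CD20) had signals from 3970 to 6685 over the 8 arrays, and the T cell gene Cd3d from 619 to 1943, so lymphocyte RNA was present in every sample. All 9 progenitor regulators passed the filter on low values, the median of all probe sets, which corresponds to a signal of 45.3. Erg and Meis1 passed it narrowly, while Lmo2 lay far above it. Markers of immature lymphocytes were largely dim, with 3 of 8 above the filter and Rag2, the partner recombinase of Rag1, under 16 on every array. The replicate 1 WT mouse of 2 months carried exocrine pancreas RNA, with a summed signal of 12600 for 6 genes against 566 to 848 on the other arrays. For the Gapdh control probe sets, the 3'/5' ratio, a sign of RNA quality, was 0.843 and 1.21 in TG mice of 12 months, against 1.25 and 1.73 in WT mice of 12 months. The 2-month arrays lay between 1.01 and 1.48, with 1.07 and 1.48 in TG mice and 1.01 and 1.39 in WT mice.

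Promoter sequence of the 3 genes whose signals were lowest in the TG mice of 12 months (Kit, Gata2 and Meis1) is shown here, because these genes stood together in the comparison that the design centres on. The windows run from 250 bases before to 50 bases after a transcription start site in RefSeq (build GRCm38.p6), and they are written 5' to 3' on the strand of the gene. Capitals mark matches to 6 short motifs searched on both strands. They were GATAA for the GATA motif, CAGNTG for the E-box of TAL1, CCGGAA for the ETS motif of ERG, GAGGAA for the ETS motif of PU.1, TGACAG for the MEIS motif and CAACNG for the MYB motif. No motif contains another. Kit lies at chr5:75574737-75575036 on the plus strand, Gata2 at chr6:88193641-88193940 (window 1) and chr6:88198414-88198713 (window 2) on the plus strand, and Meis1 at chr11:19018920-19019219 on the minus strand.
Kit: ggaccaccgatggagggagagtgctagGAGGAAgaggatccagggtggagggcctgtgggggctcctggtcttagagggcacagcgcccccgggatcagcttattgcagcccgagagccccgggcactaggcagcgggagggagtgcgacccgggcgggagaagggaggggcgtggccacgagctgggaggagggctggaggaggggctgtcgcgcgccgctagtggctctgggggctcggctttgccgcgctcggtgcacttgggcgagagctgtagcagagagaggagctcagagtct
Gata2 window 1: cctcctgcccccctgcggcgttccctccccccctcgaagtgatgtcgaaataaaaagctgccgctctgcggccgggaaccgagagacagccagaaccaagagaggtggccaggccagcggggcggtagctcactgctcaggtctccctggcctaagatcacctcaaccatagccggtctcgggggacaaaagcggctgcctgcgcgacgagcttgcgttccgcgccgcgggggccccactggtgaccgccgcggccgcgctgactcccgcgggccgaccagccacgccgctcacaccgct
Gata2 window 2: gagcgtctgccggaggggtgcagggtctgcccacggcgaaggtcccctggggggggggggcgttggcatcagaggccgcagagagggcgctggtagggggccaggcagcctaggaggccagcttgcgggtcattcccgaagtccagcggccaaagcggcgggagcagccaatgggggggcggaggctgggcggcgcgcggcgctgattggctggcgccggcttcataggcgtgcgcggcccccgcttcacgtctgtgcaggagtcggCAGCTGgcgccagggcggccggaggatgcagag
Meis1: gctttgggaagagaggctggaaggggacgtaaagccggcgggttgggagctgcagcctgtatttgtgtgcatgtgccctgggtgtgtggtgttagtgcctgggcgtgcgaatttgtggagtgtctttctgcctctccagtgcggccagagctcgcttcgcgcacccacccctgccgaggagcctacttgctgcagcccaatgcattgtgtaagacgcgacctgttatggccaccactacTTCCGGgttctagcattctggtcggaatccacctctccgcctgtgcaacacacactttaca

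The 3 promoters shared none of the 6 motifs, although those of Kit and Meis1 each held an ETS motif, of different sequence. The Kit window held the PU.1 motif once, a motif present in 28.3% of the 32851 promoter windows of this length. The Meis1 window held the ERG motif once, on the opposite strand and just ahead of the start site, and 14.9% of all windows held it. Gata2 window 2 held 1 E-box, which reads the same on both strands, and 51.4% of all windows held one, while window 1 held none of the 6 motifs. None of these 4 windows held the GATA motif, which 25.4% of all windows held. Among the other genes, 1 of 2 Tal1 windows held 4 motifs (GATA, E-box, PU.1 and MYB). In 1 of 3 Erg windows the MEIS motif stood at 2 positions beside a GATA motif and an E-box. The Cd34 window held a GATA and a MYB motif, and the Myb window an E-box. The MEIS motif was in 19.2% and the MYB motif in 35% of all windows. Windows were given for 7 of the 10 listed genes.

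TG mice of 12 months were compared with WT mice of 12 months to see whether progenitor regulators differ in spleens with established lymphoid tumours. Kit, Gata2 and Meis1 had lower signals in both TG mice than in both WT mice. Taken back from the log2 values, their signal + 16 was 0.76, 0.81 and 0.697 times that of WT mice. However, none of the 9 genes passed the test. The test was limma without a block, adjusted by Benjamini-Hochberg over 11189 genes, of which 0 (0%) had an adjusted p under 0.05. The smallest adjusted p among the 9 was 0.63. With the replicate block, 5 genes of the array passed (0.0447%), none of them among the 9. The 3 non-overlapping genes are to be read against the background of this comparison, in which 19.9% of all genes lay lower and 14.3% higher in TG mice without overlap. No progenitor regulator lay higher without overlap. Of the 9 genes, 4 were higher and 5 lower in TG mice, with a median log2 fold change of -0.14, beside a median of -0.03 over all genes.

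**Figure D1:**
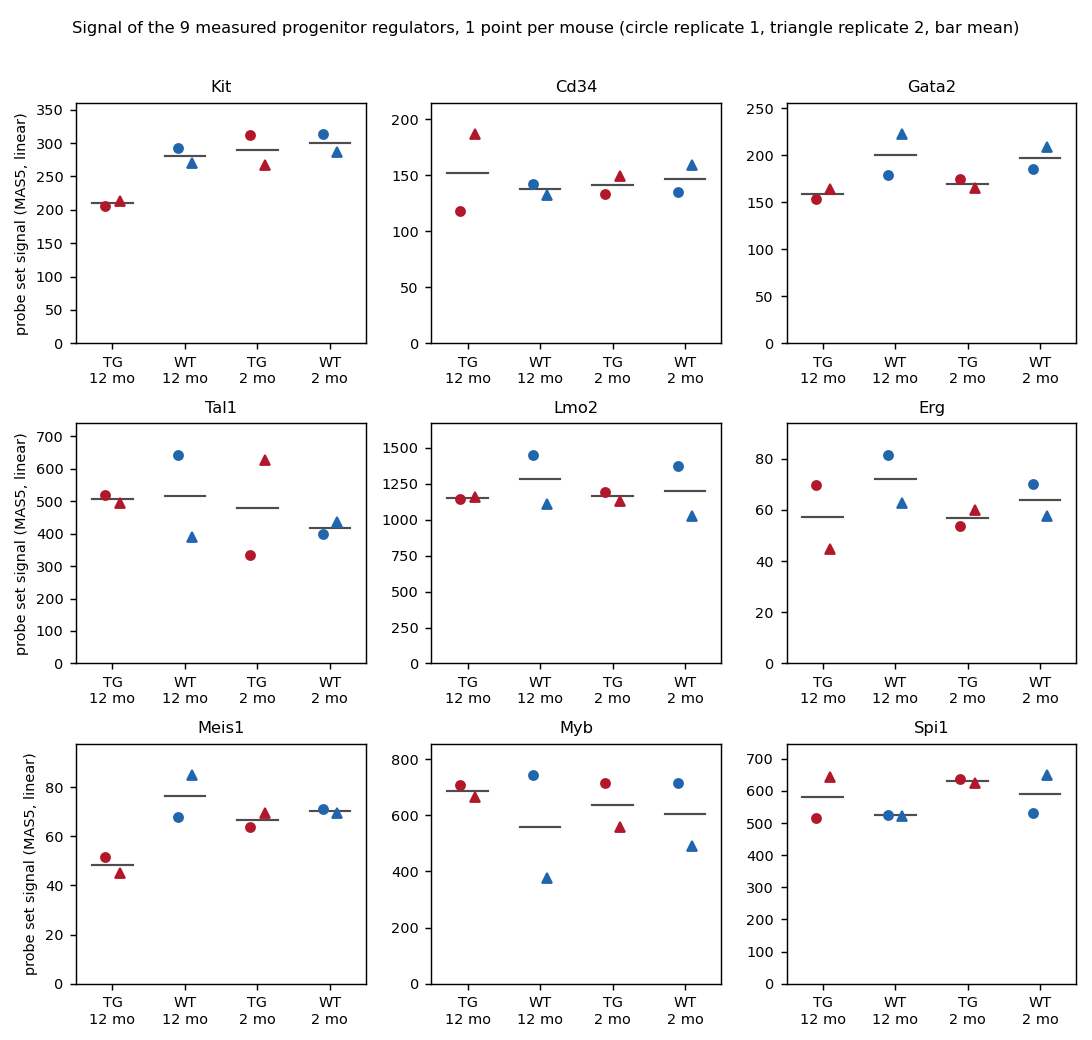
Probe set signal (linear scale, axis from 0) of the 9 measured genes in TG and WT mice of 12 and 2 months, with 1 point per mouse, circles for replicate 1, triangles for replicate 2 and a bar for the mean of 2. The TG mice of 12 months are the lowest points for Kit, Gata2 and Meis1, and the replicate 1 mice are above the replicate 2 mice in every group for Myb.

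Among the surface proteins, Kit had signals of 206 and 213 in TG mice of 12 months, against 292 and 270 in WT mice of 12 months. The groups did not overlap, and the means were 210 ± 5.16 and 281 ± 16.04 (SD, n = 2 each). The log2 fold change was -0.40 ± 0.18 (SE), with a 95% interval from -0.80 to 0.01 that includes 0 in the fit without a block (limma, adjusted p = 0.652). With the replicate number as a block the SE was 0.13 and the interval, from -0.70 to -0.09, lay off 0 (adjusted p = 0.166). Within replicate 1 and replicate 2 it was -0.47 and -0.32. A second probe set of Kit gave 51.2 and 77.7 in TG mice against 74.8 and 45.4 in WT mice, so its groups overlapped and its log2 fold change was 0.09 ± 0.32. The lower Kit signal of the brighter probe set was therefore not seen in the dimmer one.

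Cd34 did not separate the groups. Its signals were 118 and 187 in TG mice of 12 months and 142 and 133 in WT mice of 12 months, so the TG mice held both the highest and the lowest value. The log2 fold change was 0.10 ± 0.24, made of -0.24 within replicate 1 and 0.44 within replicate 2 (limma, adjusted p = 0.961).

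Among the factors of the TAL1 complex, Gata2, a zinc finger factor of stem cells, had signals of 153 and 164 in TG mice of 12 months, against 179 and 222 in WT mice of 12 months. The groups did not overlap. The log2 fold change was -0.30 ± 0.19, with -0.20 and -0.40 within the replicates (limma, adjusted p = 0.748). A second Gata2 probe set, near the filter, gave 36.2 and 63.3 in TG mice against 62.9 and 28.6 in WT mice, which overlap.

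Tal1 had signals of 520 and 495 in TG mice of 12 months, which lay inside the span of the WT mice at 643 and 391. Its log2 fold change was 0.01 ± 0.32 (95% interval from -0.73 to 0.76). Lmo2 had 1146 and 1158 in TG mice, against 1452 and 1112 in WT mice, and its log2 fold change was -0.14 ± 0.21 (95% interval from -0.62 to 0.34). For both genes the 2 TG mice were close together and the 2 WT mice far apart, and the sign of the difference was negative within replicate 1 and positive within replicate 2. In the fit without a block, the intervals leave room for a change of more than 1.5-fold in either direction for Tal1. For Lmo2 they leave room for a decrease of that size. With the replicate block the interval of Tal1 ran from -0.69 to 0.72. That of Lmo2 then ran from -0.46 to 0.18, short of a decrease of that size. The intervals of both fits include 0, and these arrays do not show that the genes stayed level.

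Erg had signals of 69.7 and 44.8 in TG mice of 12 months and 81.5 and 62.5 in WT mice of 12 months. The groups overlapped, although the TG mouse was the lower one within both replicates, by -0.19 and -0.37 on the log2 scale. The log2 fold change over all arrays was -0.28 ± 0.26 (limma, adjusted p = 0.867). A second Erg probe set had signals between 2.33 and 6.85 on all 8 arrays, far below the filter, and was not tested.

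Meis1 was the regulator with the smallest p at this age. Its signals were 51.6 and 44.9 in TG mice of 12 months, against 67.8 and 85.1 in WT mice of 12 months, with no overlap. The log2 fold change was -0.52 ± 0.22, with a 95% interval from -1.02 to -0.02, an unadjusted p of 0.0424 and an adjusted p of 0.63 (limma). In this comparison 7.73% of all genes had an unadjusted p under 0.05, made up of 5.14% lower and 2.59% higher in TG mice. Within the replicates the difference was -0.31 and -0.73. A second probe set gave 43.9 and 42.6 in TG mice against 99.0 and 50.7 in WT mice, again without overlap, with a log2 fold change of -0.56 ± 0.45. A probe set under the filter gave 31.8 and 72.0 in TG mice against 48.7 and 42.3 in WT mice, which overlap.

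Myb and Spi1 had positive values at 12 months, with 95% intervals that include 0. Myb had signals of 706 and 666 in TG mice of 12 months, against 744 and 375 in WT mice of 12 months. Its log2 fold change of 0.36 ± 0.32 came from replicate 2, at 0.80, and not from replicate 1, at -0.07 (limma, adjusted p = 0.86). Spi1 had 515 and 643 in TG mice, against 526 and 522 in WT mice, a log2 fold change of 0.13 ± 0.19 (adjusted p = 0.925). The WT values of Spi1 lay between those of the 2 TG mice.

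**Figure D2:**
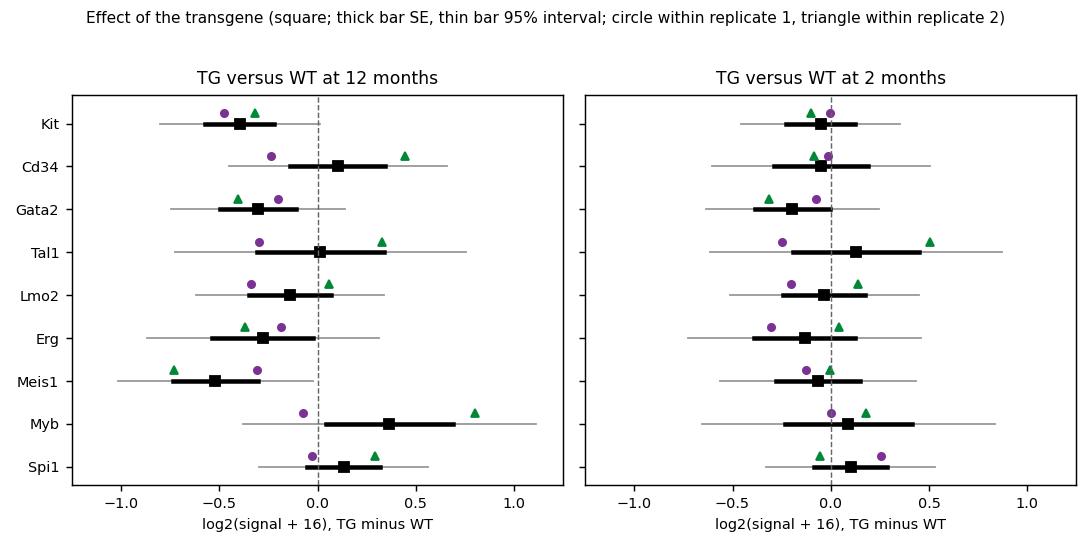
Difference in log2(signal + 16) between TG and WT mice at 12 months (left) and 2 months (right) for each gene. Squares are the fitted values with SE (thick) and 95% interval (thin), and circles and triangles are the differences within replicate 1 and replicate 2. In this fit, which has no replicate block, the 12-month interval of Meis1, from -1.02 to -0.02, is the 1 that lies off 0. With the block that of Kit, from -0.70 to -0.09, lies off 0 as well.

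At 2 months, TG mice were compared with WT mice to see whether these genes differ before tumours form. None of the 9 genes passed the test (limma, adjusted p = 1.00 for each), as none of all genes did (0%). An unadjusted p under 0.05 was found for 0.393% of all genes and for 0 of the 9. Kit had signals of 312 and 267 in TG mice of 2 months and 313 and 287 in WT mice of 2 months, and its log2 fold change was -0.05 ± 0.18. Cd34 had 133 and 149 in TG mice and 135 and 159 in WT mice (-0.05 ± 0.24). Within replicate 1 both of these probe sets were nearly equal between the genotypes. The second Kit probe set gave 126 and 77.6 in TG mice, against 86.7 and 64.1 in WT mice. It overlapped, with an opposite log2 fold change of 0.34.

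Gata2 and Meis1 lay lower in both TG mice of 2 months without overlap, as 7.83% of all genes did, while 10.1% lay higher. Gata2 had 175 and 165 in TG mice, against 185 and 209 in WT mice, with a log2 fold change of -0.20 ± 0.19. Meis1 had 63.9 and 69.4 in TG mice, against 71.3 and 69.5 in WT mice, and the fold change was -0.06 ± 0.22. The nearest TG and WT values of Meis1 thus differed by less than 1 unit of signal. The second probe sets of both genes overlapped at this age. That of Gata2 had 61.1 and 37.9 in TG mice, against 38.3 and 48.8 in WT mice, with an opposite log2 fold change of 0.12. That of Meis1 had 78.2 and 22.1 in TG mice, against 73.9 and 49.5 in WT mice (-0.36). Without the WT mouse that carried pancreas RNA, the 2-month values were -0.28 for Gata2, -0.05 for Meis1 and 0.01 for Kit, which turned sign.

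The remaining genes overlapped at 2 months. Tal1 had signals of 333 and 627 in TG mice, which enclose the WT values of 399 and 437. Lmo2 had 1191 and 1133 in TG mice, inside the WT values of 1375 and 1028. Erg had 53.7 and 59.8 in TG mice and 70.2 and 57.6 in WT mice. Myb had 713 and 559 in TG mice and 714 and 492 in WT mice, so the replicate 1 mice of both genotypes were equal to within 1 unit. Spi1 had 636 and 625 in TG mice, inside the WT values of 530 and 650. The log2 fold changes of these 5 genes were 0.13 ± 0.32, -0.03 ± 0.21, -0.13 ± 0.26, 0.09 ± 0.32 and 0.10 ± 0.19.

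The difference between the transgene's effects at the 2 ages was tested as an interaction. For Meis1 it was -0.46 ± 0.31 and for Kit -0.34 ± 0.25, both with an adjusted p of 1.00 (limma), so a larger effect at 12 months was not shown for either gene. The others lay between -0.15 (Erg) and 0.28 (Myb). No gene of the array passed this test (0%), and 1.9% of all genes had an unadjusted p under 0.05, against 0 of the 9. Without the WT mouse that carried pancreas RNA the difference was -0.47 for Meis1 and -0.40 for Kit.

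Age was compared within each genotype. These comparisons share arrays with those above, so their values are given side by side and not as further support. In TG mice, Kit was lower at 12 months (206 and 213) than at 2 months (312 and 267). Its log2 fold change was -0.43 ± 0.18, with a 95% interval from -0.84 to -0.03. The unadjusted p was 0.0393 (limma, adjusted p = 1.00). With the replicate block the interval ran from -0.73 to -0.13 (limma, adjusted p = 0.263). The second Kit probe set gave 51.2 and 77.7 at 12 months, against 126 and 77.6 at 2 months. These overlap, and its log2 fold change was -0.54. Of all genes, 4.72% had an unadjusted p under 0.05 in this comparison (3.11% lower and 1.61% higher). The test was passed by 1 gene (0.00894%), and by 21 genes (0.188%) with the replicate block, none of them a regulator. Meis1 (-0.36 ± 0.22) and Gata2 (-0.09 ± 0.19) also lay lower at 12 months without overlap, as 17.4% of all genes did, while 10.3% lay higher. The second Meis1 probe set overlapped between the ages, at 43.9 and 42.6 at 12 months and 78.2 and 22.1 at 2 months, with a log2 fold change of -0.02. The nearest Gata2 values, 164 at 12 months and 165 at 2 months, were almost equal. Log2 fold changes of the other 6 genes with age in TG mice lay between -0.13 (Spi1) and 0.14 (Tal1). In the same comparison endothelial markers were lower at 12 months for 15 of 15 genes (median -0.37, with -0.59 and -0.24 within replicates 1 and 2). B cell markers were lower for 14 of 17 (median -0.26, with -0.61 and -0.09). Macrophage markers were lower for 13 of 18 (median -0.25), but their median turned sign between the replicates, at -0.51 and 0.10. Mitosis genes were higher for 11 of 11 (median 0.47, with 1.01 within replicate 1 and -0.07 within replicate 2). The part of these lists in the age values of Kit, Meis1 and Gata2 was not tested.

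In WT mice no such difference in Kit was found: its signals were 292 and 270 at 12 months and 313 and 287 at 2 months, with a log2 fold change of -0.09 ± 0.18. Meis1 (0.09 ± 0.22) and Gata2 (0.02 ± 0.19) overlapped between the ages. Without the WT mouse that carried pancreas RNA the values were -0.03 for Kit, 0.11 for Meis1 and -0.06 for Gata2, which turned sign. Spi1 was the 1 regulator without overlap, at 526 and 522 at 12 months and 530 and 650 at 2 months (-0.16 ± 0.19, limma, adjusted p = 1.00), beside 10.9% of all genes that lay lower and 12.7% higher at 12 months. No gene passed the test in WT mice (0%), and an unadjusted p under 0.05 was found for 1.53% of all genes (0.947% higher, 0.581% lower) and for no regulator. The age effects of Kit in the 2 genotypes differ by the interaction given above, which did not pass.

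Over all 8 mice, TG mice of 12 months had the lowest group mean for Kit, Meis1 and Gata2. Kit averaged 210 in TG mice of 12 months, then 281 in WT mice of 12 months, 289 ± 32.4 in TG mice of 2 months and 300 ± 18.6 in WT mice of 2 months, and the upper 3 groups overlapped. Meis1 averaged 48.2 ± 4.72 in TG mice of 12 months, 66.6 ± 3.88 in TG mice of 2 months, 70.4 ± 1.25 in WT mice of 2 months and 76.4 ± 12.2 in WT mice of 12 months. Gata2 averaged 159 ± 7.70 in TG mice of 12 months and 170 ± 7.08 in TG mice of 2 months, then 197 ± 16.7 in WT mice of 2 months and 201 ± 30.7 in WT mice of 12 months. For these 3 of 9 genes the TG mice of 12 months were the 2 lowest of the 8 arrays, a pattern that 8.63% of all genes had. The second probe sets of these 3 genes did not have it. The lowest signal of the second Meis1 set, 22.1, was that of a TG mouse of 2 months. For the second sets of Kit (45.4) and Gata2 (28.6) it was that of a WT mouse of 12 months. No regulator had the TG mice of 12 months as the 2 highest arrays, as 4.92% of all genes did, and for none did another group hold the 2 extreme places. Over all genes, WT mice of 12 months held the lowest places in 2.86% and the highest in 3.66%, TG mice of 2 months in 0.715% and 1.46%, and WT mice of 2 months in 1.48% and 1.3%.

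In a test of the replicate number 1 of 9 regulators passed, beside 26.3% of all genes, so the call is not particular to the regulators. This test was added after the values were seen. Myb was higher in all 4 replicate 1 mice (706 to 744) than in all 4 replicate 2 mice (375 to 666). The log2 difference of replicate 1 minus replicate 2, fitted beside the 4 groups, was 0.48 ± 0.14 (limma, adjusted p = 0.0374). In this comparison 12.7% of all genes passed higher and 13.6% lower, and 12.8% lay higher in replicate 1 without overlap, so 26.3% of the array and 1 of 9 regulators passed. Lower in replicate 1 without overlap were 14.4% of all genes. The call was lost without the filter on low values (adjusted p = 0.0595). It was also lost without any 1 of the 6 mice other than the TG mice of 12 months, controls included (adjusted p = 0.0747 to 0.132). The log2 difference then lay between 0.32 and 0.52, with 0.32 without either WT mouse of 12 months.

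All 3 probe sets of Myb showed the replicate difference, and the set chosen by the highest mean showed it least. It was 1.44 ± 0.16 for the next brightest, with signals of 510 to 587 in the 4 replicate 1 mice and 140 to 324 in the 4 replicate 2 mice. It was 0.80 ± 0.13 for the dimmest, with 152 to 184 against 76.0 to 131. With p-values adjusted over all probe sets past the filter that have 1 symbol, these were 0.00103 and 0.00444 (limma). The chosen set carries the suffix that Affymetrix gives to sets with probes that may match other transcripts, and its values can mix several. In each of the 3 sets the replicate 2 TG mouse of 12 months was the highest of the 4 replicate 2 mice, at 666, 324 and 131. The other Myb probe sets gave log2 fold changes between TG and WT mice of 12 months of 0.65 ± 0.77 and 0.39 ± 0.46. The next replicate differences among the regulators were 0.23 ± 0.15 for Erg, -0.22 ± 0.13 for Cd34 and 0.21 ± 0.10 for Lmo2, and none of these passed.

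**Figure D3:**
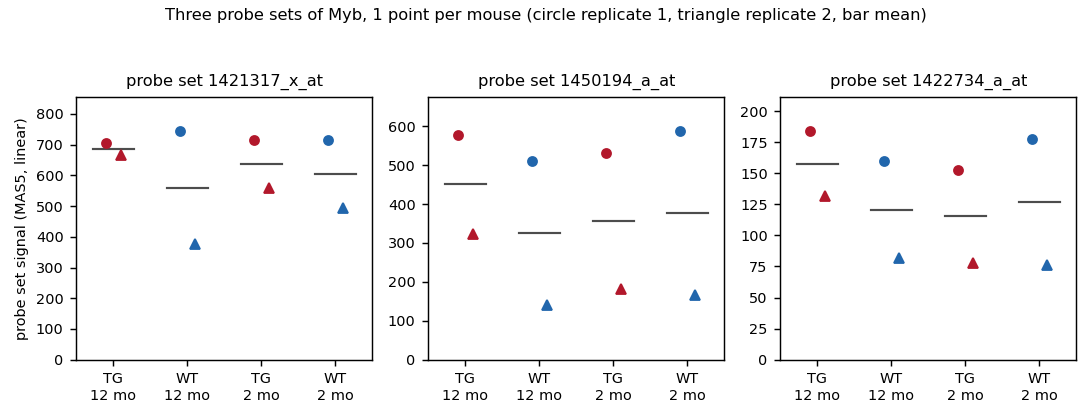
Signal (linear scale, axis from 0) of the 3 Myb probe sets in the 8 mice, with circles for replicate 1, triangles for replicate 2 and a bar for the mean of 2. The replicate 1 mice lie above all replicate 2 mice in each set, most widely in the middle panel (510 to 587 against 140 to 324).

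Other progenitor genes were read from lists that hold none of the 9. Among 18 measured of 20 listed transcription factors that work beside these regulators, none passed the test at 12 months, 9 were higher and 9 lower in TG mice, and the median log2 fold change was -0.02. The 3 with the largest moderated t were Gfi1, a repressor of myeloid progenitors (0.88 ± 0.40), Hhex, a homeobox factor of early lymphoid cells (-0.73 ± 0.34), and Zfpm1, the GATA cofactor FOG1 (0.53 ± 0.30). Without overlap, 5 of the 18 lay higher in TG mice (Gfi1, Zfpm1, Cbfb, Bmi1 and Ikzf1) and 1 lower (Hhex), beside 14.3% and 19.9% of all genes. Gfi1 had signals of 85.0 and 227 in TG mice, against 81.4 and 58.7 in WT mice, and without the replicate 2 TG mouse its log2 fold change was 0.24. Hhex had 237 and 544 in TG mice, against 570 and 649 in WT mice, and without the replicate 1 TG mouse its log2 fold change was -0.16. Zfpm1 had 584 and 893 in TG mice, against 561 and 438 in WT mice, and its log2 fold change was 0.23 without the replicate 2 TG mouse. For each of these 3 genes 1 TG mouse thus held most of the difference. Values of other partners of the TAL1 complex were -0.08 ± 0.21 for the bridging protein Ldb1, -0.22 ± 0.46 for the TAL1 relative Lyl1 and 0.22 ± 0.36 for the core factor Runx1. Fli1, the closest relative of Erg, followed the replicate number, with 1004 and 316 in TG mice of 12 months and 1115 and 351 in WT mice of 12 months, higher in replicate 1 in both groups.

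Of 15 measured of 16 listed progenitor surface receptors, none passed the test at 12 months either. An unadjusted p under 0.05 was found for 3 of the 15, all lower in TG mice, beside 5.14% of all genes. They were Cd244a, an immune receptor of the SLAM family (-1.06 ± 0.25), Il6st, the signal chain gp130 (-0.59 ± 0.16), and Flt3, the receptor tyrosine kinase of lymphoid-primed progenitors (-0.49 ± 0.18). Flt3, a relative of Kit, had signals of 179 and 177 in TG mice of 12 months, against 258 and 255 in WT mice of 12 months. Cd244a had 79.0 and 82.8 in TG mice, against 159 and 219 in WT mice. Il6st had 432 and 476 in TG mice, against 694 and 688 in WT mice. All 3 missed the test (limma, adjusted p = 0.586 to 0.601). The median of the receptor list was -0.03, as over all genes. In RNA of mixed spleen cells these receptor values need not come from progenitors, and the part of other cell types in them was not tested.

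At 2 months 0 of the 18 factors and 1 of the 15 receptors had an unadjusted p under 0.05, beside 0.393% of all genes. That receptor was Il3ra, the interleukin 3 receptor chain, higher in TG mice at 0.76 ± 0.27, as 0.295% of all genes were. Without the WT mouse that carried pancreas RNA, whose Il3ra signal was 29.9 against 52.1 in the other WT mouse of 2 months, the value was 0.48, and that with age in WT mice 0.40. The next by moderated t were Flt3 (0.29 ± 0.18) and Prom1 (0.43 ± 0.29) among receptors and Hoxa9 (0.67 ± 0.44), Gfi1 (0.53 ± 0.40) and Runx1 (-0.38 ± 0.36) among factors. With age in TG mice, the same 3 receptors as at 12 months led, with -0.52 ± 0.16 for Il6st, -0.55 ± 0.18 for Flt3 and -0.77 ± 0.25 for Cd244a, and these values share the TG arrays of 12 months. Among factors, Hhex (-0.75 ± 0.34), Cebpa (-0.31 ± 0.18) and Bmi1 (0.48 ± 0.32) led. With age in WT mice the leading receptors were Il3ra (0.68 ± 0.27), Prom1 (0.57 ± 0.29) and Cd244a (0.42 ± 0.25), and the leading factors Cebpa (-0.25 ± 0.18), Gfi1b (0.26 ± 0.24) and Runx1 (-0.34 ± 0.36). All of these missed the test in their comparison, and several rest on 1 mouse: without the replicate 2 TG mouse of 2 months, Hoxa9 at 2 months was 0.14, Prom1 at 2 months 0.14 and Bmi1 with age in TG mice 0.11. With age in WT mice, Gfi1b was 0.02 and Runx1 0.19, which turned sign, once the replicate 1 mouse of 12 months was left out. Without the replicate 1 TG mouse of 12 months, Hhex with age in TG mice was -0.18.

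Markers of other cells that use the same regulators were measured beside them at 12 months. Mast cells and basophils, which carry Kit and Gata2, left little signal: 1 of 9 marker genes on the array passed the filter, and that gene, Cpa3, had 65.2 and 61.5 in TG mice of 12 months, against 64.7 and 60.0 in WT mice of 12 months. The summed signal of those 9 genes was 244 and 226 in TG mice and 342 and 256 in WT mice, and none of the 9 stayed under 16 on every array. Endothelial markers, from a cell type that expresses Cd34, Erg and Tal1, were lower in TG mice for 15 of 15 genes, with 9 of 15 lower without overlap, beside 19.9% of all genes. Their median log2 fold change was -0.41, with -0.61 and -0.23 within the replicates. Their summed signal was 3385 and 5138 in TG mice, against 5525 and 6380 in WT mice, and that of Stab2, a scavenger receptor of sinus endothelium, was 460 and 730 in TG mice, against 1133 and 1274 in WT mice. The part of endothelium in the values of the 9 regulators, Gata2 and Kit included, was not tested.

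Macrophage and monocyte markers, from cells that express Spi1, were lower for 16 of 18 genes, with a median of -0.51 and a summed signal of 28515 and 43255 in TG mice, against 45427 and 48272 in WT mice. Spi1 itself had a value of 0.13 ± 0.19, with a 95% interval from -0.30 to 0.56. Erythroid markers, from a lineage that uses Tal1 and Lmo2, had a median of 0.07, with -0.21 within replicate 1 and 0.37 within replicate 2, and summed to 18233 and 25226 in TG mice and 21432 and 20209 in WT mice. Megakaryocyte and platelet markers had a median of -0.24, with -0.63 and 0.12 within the replicates. Tal1 and Lmo2 had the same signs within the replicates as these 2 lists, at -0.30 and 0.33 for Tal1 and -0.34 and 0.06 for Lmo2. These signs were not particular to them. Cd34 (-0.24 and 0.44), Myb (-0.07 and 0.80), Spi1 (-0.03 and 0.29) and the neutrophil list below had them too. Mitosis genes were higher for 11 of 11 genes, with a median of 0.67 (0.68 and 0.56 within replicates 1 and 2). The Myb value was 0.36, with -0.07 and 0.80 within the replicates, so Myb was not higher within replicate 1. The median of neutrophil and granulocyte precursor markers was 0.89, with -0.09 within replicate 1 and 1.72 within replicate 2. That of T cell markers was 0.65, with 1.00 and -0.12, so both lists turned sign between the replicates. B cell markers had a median of -0.36, with -0.57 and -0.30. The part of these cell types and of dividing cells in the regulators' values, and that of the lower Gapdh control ratios of the TG arrays within both replicates, was not tested.

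**Figure D4:**
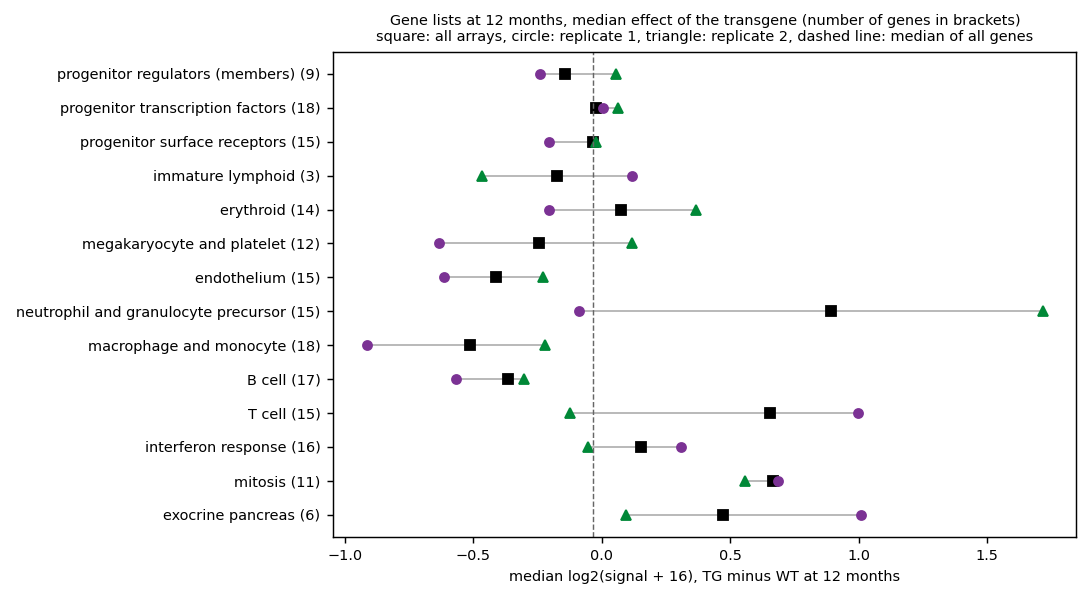
Median difference in log2(signal + 16) between TG and WT mice of 12 months for the 9 regulators and the other gene lists with more than 1 measured gene (number in brackets), over all arrays (squares) and within replicate 1 (circles) and replicate 2 (triangles). The 2 progenitor lists stand near the median of all genes (dashed, -0.03), while endothelial (-0.41) and macrophage (-0.51) markers stand below it and mitosis genes (0.67) above it.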

How the data were processed

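Spleen RNA of 8 mice was measured, 1 array each. The authors deposited 1 linear intensity per probe set, made with GCOS 1.4 and MAS5 per the submitters' processing notes, and the trimmed mean of every array is about 150.001. No background or scaling step was added. Symbols came from GEO's platform annotation and were updated through gene identifiers. Signals were set to log2(signal + 16), and probe sets averaging below the median of all were dropped, which left 11189 genes. All arrays entered 1 model of 4 group means without a block, in limma 3.58.1 (R 4.3.3, eBayes with an intensity trend). The 2-sided threshold was 0.05 after Benjamini-Hochberg adjustment. Where the block is not named, each SE, interval and p between genotypes or ages ignores the replicate number. With the block the 12-month SE was smaller, for example 0.19 for Myb, 0.14 for Lmo2, 0.15 for Gata2 and 0.13 for Spi1. The fit was tested on simulated data drawn without a replicate effect. The arrays have such an effect, so the simulation does not cover it. All 10 listed genes were to be named, with 3 genes by moderated t from each list of other progenitor genes. Other cell type lists were to be given as counts, medians and sums, with the genes of highest signal. Stab2, Fli1, Ldb1, Lyl1 and Runx1 at 12 months, the non-overlapping Cbfb, Bmi1 and Ikzf1, the test of the replicate number and the left-out mice for other progenitor genes were added after values were seen. The members and lists were chosen with earlier results of these data known.

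The replicate 1 minus replicate 2 difference of a group correlated, over genes, with that of each other group (6 pairs, r from 0.464 to 0.654), so the number pairs the mice, for a reason the labels do not give. Alternatives were other pseudocounts, filters, quantile normalization, averaged probe sets, the replicate block and leaving out each array. The labels call the mice biologic replicates. Promoter windows were taken from RefSeq (GRCm38.p6) by symbol.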

Additional observations from a re-analysis of the deposited data

How the results depend on the processing

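No member passed the test between genotypes or ages in the fit as reported or in any of the other settings, those with 1 mouse left out included (smallest adjusted p = 0.166, for Kit at 12 months with the replicate block, limma). With the replicate block the count of members past the test was 0 in all 5 comparisons, and the block changed no call. The block and the filters leave a fold change as it is, so they say nothing of its direction. Of 155 values that other settings moved, 153 kept their direction. The 2 that turned came at 2 months when all probe sets of a gene were averaged, where Kit had 0.15 and Myb -0.0056. With the stricter filter, 7 members were left and their median with age in WT mice was -0.085. The replicate count of 1 (Myb) was 0 with no filter on low values, and 0 to 1 with 1 mouse left out. With 1 mouse left out, medians of the members ranged from -0.33 to 0.05 (TG against WT at 12 months), -0.11 to -0.018 (2 months), -0.30 to 0.037 (difference of the 2), -0.13 to -0.0051 (age in TG) and -0.095 to 0.10 (age in WT). Of the 216 values that leaving out a mouse could move, 45 turned sign, none of them called. At 12 months Kit (-0.45 to -0.34), Gata2 (-0.45 to -0.16), Meis1 (-0.66 to -0.39) and Erg (-0.53 to -0.03) stayed lower, while Tal1 ranged from -0.33 to 0.36, Cd34 from -0.20 to 0.40, Spi1 from -0.023 to 0.29, Lmo2 from -0.33 to 0.049 and Myb from -0.11 to 0.84. At 2 months Kit ranged from -0.16 to 0.057, Cd34 from -0.16 to 0.059, Lmo2 from -0.24 to 0.17, Tal1 from -0.31 to 0.57, Myb from -0.17 to 0.35 and Spi1 from -0.043 to 0.24. For the difference of the 2 effects Cd34 ranged from -0.15 to 0.45, Spi1 from -0.12 to 0.19, Erg from -0.39 to 0.10, Lmo2 from -0.32 to 0.10, Tal1 from -0.55 to 0.33, Gata2 from -0.25 to 0.037 and Myb from -0.20 to 0.75. With age in TG mice Spi1 ranged from -0.28 to 0.029, Cd34 from -0.23 to 0.37, Erg from -0.26 to 0.24, Lmo2 from -0.048 to 0.023, Tal1 from -0.30 to 0.59 and Myb from -0.055 to 0.29. With age in WT mice Lmo2 ranged from -0.11 to 0.30, Tal1 from -0.090 to 0.60, Erg from -0.020 to 0.29, Gata2 from -0.13 to 0.16, Meis1 from -0.043 to 0.23, Myb from -0.64 to 0.32 and Cd34 from -0.19 to 0.023. The cause of these turns was not tested. Erg and Meis1 lie near the filter, where signal over background limits the precision.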
